A study of Mus musculus with 3 samples.

Results

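The genes described here make and carry small RNAs: the Argonautes Ago1 to Ago4 (written Eif2c1 to Eif2c4 in the array annotation), Dicer1, the microprocessor pair Drosha (Rnasen) and Dgcr8, the Dicer partner Tarbp2 and the Argonaute partner Tnrc6a. They were chosen by name, with all probes of each gene kept, after values of these arrays were known, and differences between probes of Ago2 were part of the reason. The values between pressure and control are therefore given as a description, and no test of them supports a claim. By symbol or synonym 29 of the 41174 probes belonged to these 9 of 27670 distinct names, 17 of them to the 4 Argonautes. Each distinct name is counted as a gene here, also where it matched no entry in RefSeq's mouse gene table.

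The embryos were mouse four-cell embryos. In the HP group the oocytes had been put under a hydrostatic pressure of 20 MPa for 60 min at 37 °C, while the control oocytes were handled identically but without the pressure. Both were then fertilised and cultured to this stage, by sperm injection according to the sample labels and in vitro according to the series title. The 3 HP pools held 44, 30 and 37 embryos and the 3 control pools 36, 33 and 24, numbered replicates 1, 2 and 3. No mouse strain is given in the sources used here.

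From each pool 240 pg of total RNA was amplified in successive rounds. Every array held 1 HP pool in Cy5 and 1 control pool in Cy3, so dye and pressure cannot be told apart. Between 17.5% and 19.8% of probes were well above background in the HP channels and between 18.5% and 23.1% in the control channels. Of 12 markers of the oocyte and early embryo, 7 were above background in all 6 pools and Nlrp5, Zar1 and Ooep in none. Their summed normalized intensity ran from 18875 to 34012 in HP pools and from 12532 to 15708 in control pools, and its part in the values below was not tested. Oog1 (mean log2 13.99 in HP pools, 12.51 in control pools) and Dppa3 (13.02 and 12.76) were the brightest and weigh most in this sum. Pou5f1, Zar1, Tead4 and Klf5 had lower means in HP pools, and the other markers had higher means. No direction is read for Nlrp5, Zar1 and Ooep, nor for Pou5f1, above background in 1 control pool only. Zp3 was nearly equal (6.81 in HP pools, 6.80 in control pools). Of markers of other cells, 1 of 10 for cumulus cells (Ptx3), 1 of 6 for fibroblasts (Col1a1) and 2 of 6 for sperm (Prm1 and Prm2) were above background in at least 1 pool. Prm1 was above background in 2 HP pools and 3 control pools, and Prm2 in 1 control pool. In a pool of embryos, fewer cells and less RNA per cell cannot be told apart.

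MicroRNAs begin as hairpins in long transcripts, which Drosha and its RNA-binding partner Dgcr8 cut free in the nucleus. Dicer1 trims the hairpin, or a long double-stranded RNA, to a short duplex in the cytoplasm, and 1 strand is loaded into an Argonaute protein, which Tnrc6a links to deadenylation of the bound mRNA. Ago2 is the Argonaute known for cutting its target. In mouse oocytes this machinery is known for small interfering RNAs made by Dicer1, while microRNAs have little activity there.

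The Ago2 probes are shown because they differed most among themselves. For 3 of them the first 30 of the 60 bases are given in lower case, 5′ to 3′, starting with the most 3′ probe on chromosome 15. All 4 probes lie on the minus strand of the mm7 build named in the array design.
Ago2 A_51_P166107: atctgtgtgacgacgtcttgtgcttgcggt
Ago2 A_51_P180001: catgaaagccacaccatttccattggggtt
Ago2 A_52_P101221: gtactttgcttgacctgttgtattgtttag

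These probes lie at chr15:73178448-73178507, chr15:73186176-73186235 and chr15:73186604-73186663. The first, A_51_P166107, is named in the array design by a clone, 2310051F07Rik (cDNA AK075904), which RefSeq lists as a synonym of Ago2, and it lies 7728 bases beyond the next Ago2 probe. An annotation of the mm7 build was not used here, so whether this stretch belongs to the Ago2 transcript was not analysed here.

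Detection came before any comparison. A probe entered the test if 1 channel was called well above background by the scanner software on 2 or more of the 3 arrays, which held for 12 of the 29 probes and for 8590 probes in all. The tested probes covered 6 genes. Ago2 had 3 of 4 probes, Ago4 had 3 of 5, Drosha had 2 of 3, Tnrc6a had 2 of 3, Dicer1 had 1 of 2 and Tarbp2 had its single probe. Ago1 with 3 probes, Ago3 with 5 and Dgcr8 with 3 had none.

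Of the 29 probes, 15 were above background in no pool and 4 in all 6. Those 4 were A_51_P166107 and A_51_P180001 of Ago2, A_52_P27117 of Ago4 and A_51_P127186 of Drosha. The 17 untested probes had normalized log2 intensities between 6.12 and 6.73, the highest being 1 HP pool of Ago3. No probe of Ago1 or Dgcr8 was above background in any of the 6 pools. For Ago3, A_52_P126513 was above background in the HP pool of replicate 1 and in no other pool, at 6.73, 6.29 and 6.27 in HP pools and 6.18, 6.36 and 6.24 in control pools. A transcript below the reach of a dim probe was not detectable after this amplification, and is not shown to be absent.

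**Figure D1:**
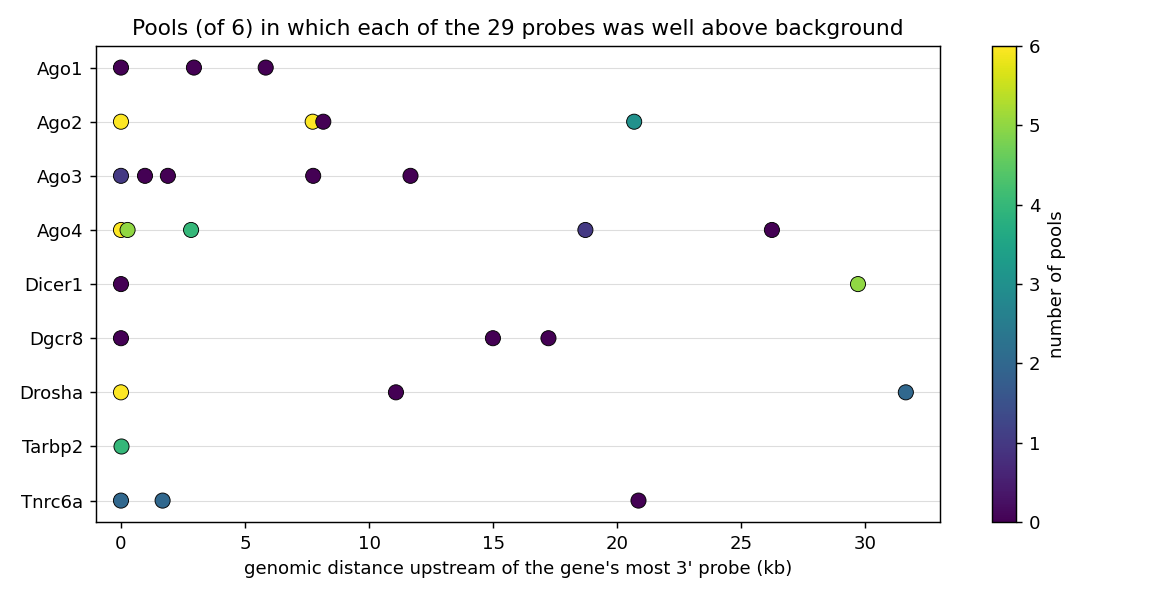
Number of the 6 pools in which each of the 29 probes was well above background (colour), against the genomic distance in kb upstream of the most 3′ probe of the gene (mm7). The probes in 6 pools are 2 of Ago2, 1 of Ago4 and 1 of Drosha, and all probes of Ago1 and Dgcr8 are at 0.

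The place of a probe in its gene was set beside its detection. How often the same holds over all genes of the array was not analysed. The most 3′ probe was above background in more pools than any other probe of its gene for Ago3, Ago4 and Drosha. For Ago3 this rests on 1 pool. It was tied with another probe for Ago2 and Tnrc6a, and was not the highest for Dicer1. Ago4 was graded by position, as the plot of detection by distance shows. From the 3′ side its probes were above background in 6, 5, 4, 1 and 0 pools, at 0, 266, 2826, 18721 and 26239 bases from the first. The median share of G and C was 43.3% in the 12 tested probes, 36.7% in the 17 untested ones and 41.7% in all tested probes.

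The Ago2 probes gave different values. The 3′ probe A_51_P166107 was at 8.23, 6.63 and 7.24 in the HP pools of replicates 1, 2 and 3, against 9.31, 8.39 and 8.56 in the control pools, all as normalized log2 intensity. Every HP pool was below every control pool, and the HP pool of replicate 1 came close to the lowest control pool. The log2 ratio of HP over control was −1.08, −1.76 and −1.32 on the 3 arrays, with a mean of −1.38 ± 0.17 (moderated SE, n = 3), or 2.61-fold higher in control. The pools averaged 7.37 ± 0.81 in HP and 8.75 ± 0.49 in control (SD, n = 3 each).

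The next Ago2 probe, A_51_P180001 (cDNA BC096465), was at 7.06, 6.96 and 7.14 in HP pools against 6.99, 7.07 and 7.83 in control pools. The groups overlapped, and only the control pool of replicate 3 stood above the rest. Its mean log2 ratio was −0.24 ± 0.19, from 0.07, −0.10 and −0.69 on single arrays. The 5′ probe A_52_P101218 was at 6.29, 6.48 and 6.36 in HP pools and 6.36, 6.47 and 6.36 in control pools, a ratio of −0.02 ± 0.10. It was above background in 2 HP pools and 1 control pool. The fourth, A_52_P101221, was above background in no pool.

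On every array the ratio of A_51_P166107 lay below that of the other tested Ago2 probes. The difference of log2 ratios from A_51_P180001 was −1.15, −1.65 and −0.63 (mean −1.14 ± 0.51, SD over 3 arrays), and from A_52_P101218 it was −1.01, −1.77 and −1.32 (mean −1.37 ± 0.38). The remaining pair, A_51_P180001 minus A_52_P101218, differed by 0.14, −0.12 and −0.69, with both signs. The ratios of the Ago2 probes thus spanned 1.37, and the median span over the 1149 genes with several tested probes was 0.30. Differences between the Ago2 probes were part of the reason for choosing these genes, and genes differ in their number of tested probes. Whether the Ago2 span is unusual was therefore not tested. Its upper end was the dim probe A_52_P101218, at 6.29 to 6.48 over the pools, and the processing shrinks the ratios of dim probes. Ago2 as a gene has no single value here, and a change of the Ago2 transcript as a whole was not shown.

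**Figure D2:**
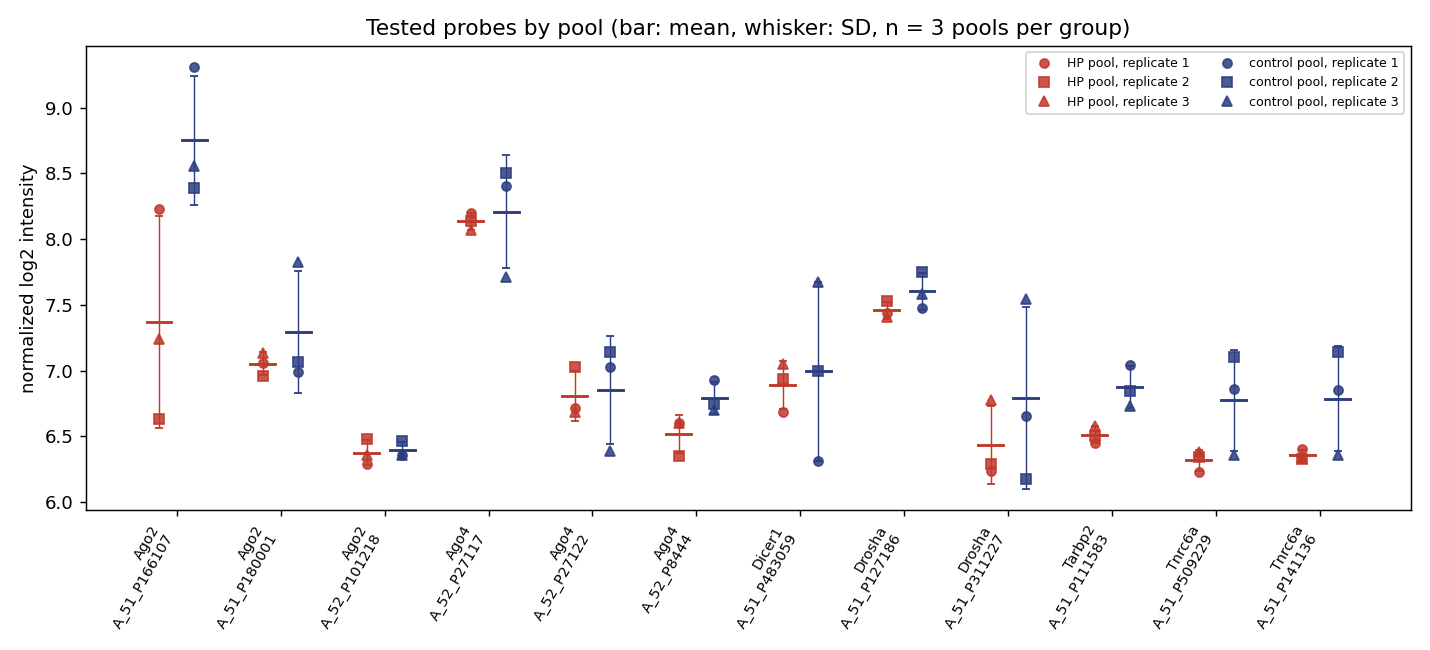
Normalized log2 intensity of the 12 tested probes in the 3 HP pools (red, left of each pair) and the 3 control pools (blue, right), with the mean as a bar and the SD as a whisker. Intensities compare within a probe only. A_51_P166107 of Ago2 shows all HP pools, 6.63 to 8.23, below the control pools, 8.39 to 9.31.

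Ago4 binds small RNAs and lacks the cutting activity of Ago2. Its brightest and most 3′ probe, A_52_P27117 (chr4:125934299-125934358, minus strand), was at 8.20, 8.14 and 8.07 in HP pools and 8.41, 8.50 and 7.71 in control pools. The HP pools lay together, and the control pools lay on both sides of them. The log2 ratio was −0.20, −0.36 and 0.36 on the arrays, a mean of −0.07 ± 0.18. The neighbouring probe A_52_P27122, 266 bases away, was at 6.71, 7.03 and 6.68 in HP pools and 7.03, 7.15 and 6.39 in control pools (−0.04 ± 0.16). Both probes had a negative ratio on replicates 1 and 2 and a positive ratio on replicate 3. They match the same cDNA, AK017827, and are not independent.

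The third tested Ago4 probe, A_52_P8444 (chr4:125937125-125937184), was at 6.60, 6.35 and 6.60 in HP pools, against 6.93, 6.75 and 6.70 in control pools. The groups did not overlap, though the highest HP pools lay close to the lowest control pool, and the ratio was −0.27 ± 0.12. This probe was above background in 1 HP pool and all 3 control pools. The 3 tested Ago4 probes spanned 0.23 in log2 ratio.

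Dicer1, which cuts hairpins and long double-stranded RNA, had probes of opposite detection. Both are printed whole because they separate a detected from an undetected stretch of the same RefSeq transcript, NM_148948.
Dicer1 A_51_P483059: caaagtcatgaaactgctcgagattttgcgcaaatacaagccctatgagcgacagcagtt
Dicer1 A_51_P333060: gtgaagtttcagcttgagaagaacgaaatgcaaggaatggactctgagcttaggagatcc

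The upstream probe A_51_P483059 (chr12:102216485-102216544, minus strand) was above background in 3 HP pools and 2 control pools. It was at 6.69, 6.94 and 7.05 in HP pools and 6.32, 7.00 and 7.68 in control pools. The control pools ran both below and above the HP pools, so the groups overlapped. The log2 ratio was 0.37, −0.06 and −0.63, with a mean of −0.11 ± 0.23. The downstream probe A_51_P333060 was above background in no pool. Its 60 bases are spread over 2072 bases of the genome (chr12:102186776-102188847), as for a probe across an exon boundary, and it lies 29709 bases from the other.

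For Drosha, the nuclease of the microprocessor, the 3′ probe A_51_P127186 (chr15:12995078-12995137, plus strand) was at 7.44, 7.53 and 7.41 in HP pools and 7.47, 7.75 and 7.58 in control pools. These were narrow groups that still overlapped, at the HP pool of replicate 2. The ratio was negative on each array, −0.04, −0.22 and −0.17, with a mean of −0.14 ± 0.11. The 5′ probe A_51_P311227 (cDNA AK077549) was above background in no HP pool and in the control pools of replicates 1 and 3. Its values were 6.24, 6.29 and 6.78 in HP pools and 6.66, 6.18 and 7.54 in control pools.

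For such a probe the level in HP pools is only a limit. With the control pool of replicate 2 also not above background, the fitted ratio of −0.36 ± 0.21 sets no fold. Dgcr8, the partner that binds the hairpin, was not above background in any pool with any of its 3 probes, on chromosome 16.

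Tarbp2, which binds double-stranded RNA beside Dicer1, has 1 probe, A_51_P111583 (chr15:102509553-102509612, plus strand). It was at 6.45, 6.51 and 6.58 in HP pools, against 7.04, 6.85 and 6.73 in control pools. Every HP pool was below every control pool, and the ratio was −0.59, −0.34 and −0.15, a mean of −0.36 ± 0.14. It was above background in 1 HP pool and 3 control pools.

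Tnrc6a carries the glycine and tryptophan repeats that bind Argonaute. Its probes A_51_P509229 (chr7:119297779-119297838, plus strand) and A_51_P141136, 1678 bases upstream, had similar values. A_51_P509229 was at 6.23, 6.35 and 6.38 in HP pools and 6.86, 7.10 and 6.36 in control pools. A_51_P141136 was at 6.41, 6.33 and 6.33 in HP pools and 6.86, 7.14 and 6.36 in control pools. Both were above background in no HP pool and in the control pools of replicates 1 and 2, so the control pool of replicate 3 lay with the HP pools. The fitted ratios were −0.46 ± 0.20 and −0.43 ± 0.19, and with 1 control pool also not above background they set no fold. The third probe was above background in no pool.

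**Figure D3:**
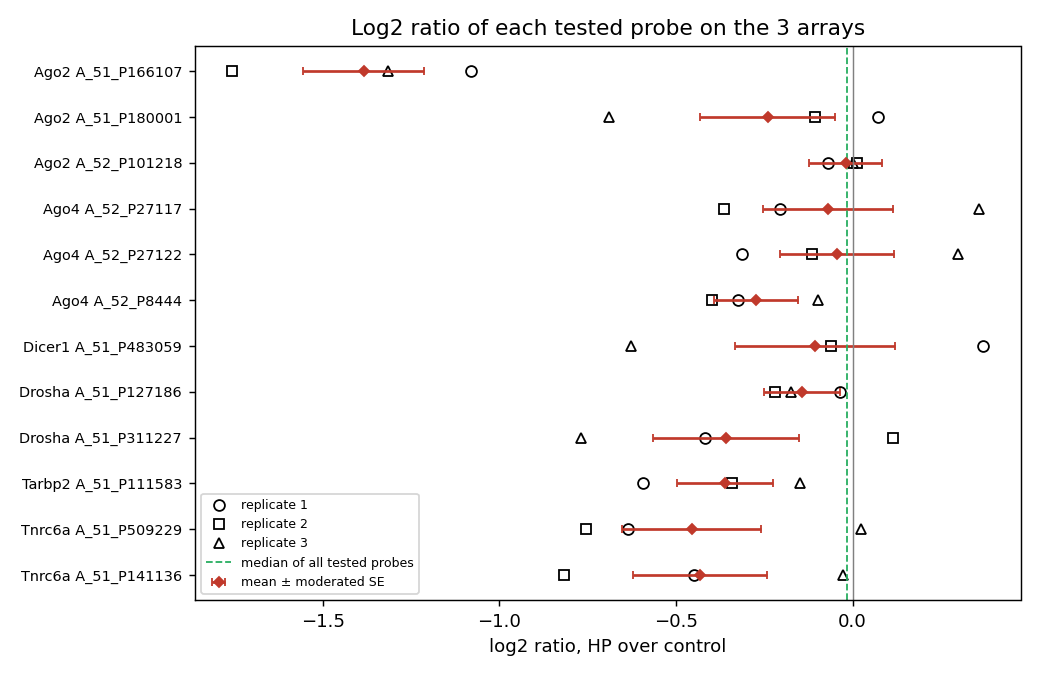
Log2 ratio of HP over control for the 12 tested probes on each of the 3 arrays (open symbols), with the mean and its moderated SE (red) and the median of all 8590 tested probes (dashed, −0.02). A_51_P166107 of Ago2 is the only probe with all 3 arrays below −1, and no probe is above 0 on all 3.

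The counts over the members are given beside those over the whole array. At an adjusted p under 0.05 (limma, Benjamini-Hochberg over 8590 probes) 0 of the 12 member probes and 0% of all tested probes were called. At an unadjusted p under 0.05 the count was 1 of 12, the Ago2 probe A_51_P166107 (limma adjusted p = 0.177), beside 17.8% of all tested probes, and nothing is read from it. In the lower direction that background was 10.8%, and in the higher direction, with 0 members, 7.01%. The limma adjusted p of 0.177 was also the lowest of all 8590 probes. Benjamini-Hochberg adjustment can give probes of smaller unadjusted p the same value, so this does not rank the probe first.

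All 12 mean ratios were below 0, where 52.2% of all tested probes were. Lower on all 3 arrays were 5 of 12, against 24.9% of all tested probes, and every HP pool lay below every control pool for 3 of 12 (1 probe each of Ago2, Ago4 and Tarbp2), against 12.9%. Higher on all 3 arrays were 0 of 12, against 22.7%. The median ratio was −0.26 over the members and −0.02 over all tested probes, and on the 3 arrays it was −0.32, −0.28 and −0.12 over the members. These figures carry the filter with them. Of the 12 probes, 5 were tested because of the control channel alone, 1 because of the HP channel alone and 6 through both. Over all tested probes the control channel alone gave 15.6% and the HP channel alone 11.3%. Among all 1344 probes tested through the control channel alone 93.8% were below 0, with a median of −0.20.

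Among the 6 probes tested through both channels, the 2 of Ago4 and the 1 of Dicer1 had ratios between −0.11 and −0.04, and the others were A_51_P166107 and A_51_P180001 of Ago2 and A_51_P127186 of Drosha. The spread over pools was wider in control for most member probes. The median SD of the member probes was 0.092 over HP pools and 0.40 over control pools, beside 0.17 and 0.22 over all tested probes, and the SD was larger in control for 9 of 12 probes and for 60.0% of all tested probes. Dicer1, at 0.19 in HP pools and 0.68 in control pools, and the 5′ Drosha probe, at 0.30 and 0.69, were the widest control groups. A_51_P166107 of Ago2 went the other way, at 0.81 in HP pools and 0.49 in control pools. Probes tested through the control channel alone were dim in HP pools, so these spreads carry the filter too.

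**Figure D4:**
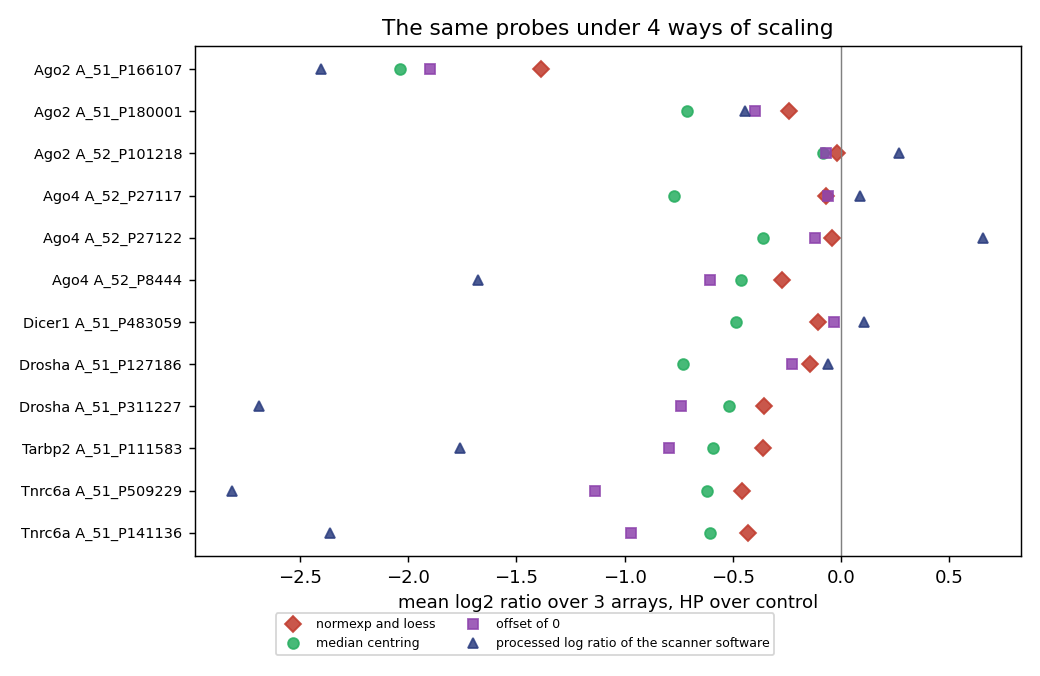
Mean log2 ratio of the 12 tested probes with normexp and loess, with median centring, with an offset of 0 and with the processed log ratio of the scanner software. A_51_P166107 of Ago2 runs from −2.41 to −1.38 over these, while 5 probes dim in HP pools (A_52_P8444 of Ago4, A_51_P311227 of Drosha, and those of Tarbp2 and Tnrc6a) reach −1.68 or lower with the processed ratio.

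The size of each ratio depended on the scaling, as the plot of the 4 scalings shows. A_51_P166107 was below 0 under all 15 other settings that gave it a value, from −2.41 with the scanner's processed ratio to −1.20 without replicate 2. The settings of filter, moderation and block cannot move this ratio, and the authors' series table repeats the scanner's ratio. With median centring the median of all tested probes was −0.37, and A_51_P166107 was −1.67 relative to it, with a limma adjusted p of 0.042, the only setting that took it past adjustment. The dim probes A_51_P311227 of Drosha and A_51_P509229 of Tnrc6a reached −2.69 and −2.81 with the processed ratio, where dim signals are replaced by surrogate values. A_52_P101218 of Ago2, A_52_P27117 and A_52_P27122 of Ago4 and the Dicer1 probe were above 0 under 4, 4, 6 and 4 other settings, so no direction is given for them. These counts take the scanner's ratio and the series table, which hold the same values, separately. Ago4 A_52_P27122, for example, was at 0.66 with the processed ratio.

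The Argonautes are alike in sequence, so the probes were compared with each other. Over 367 pairs of probes from different genes the longest shared run was 11 bases and the median share of matching bases in the best alignment was 44.7%. The most alike pair was A_52_P101218 of Ago2 and A_52_P525027 of Ago4, which matched at 24 of 30 aligned bases (80.0%), and the Ago4 probe was above background in 1 pool. The next most alike pair, from Dgcr8 and Tnrc6a, matched at 65.0% over 20 bases. A_51_P166107 is in neither pair. The probes were not compared with the transcripts of the other genes, so binding of a probe to the transcript of another Argonaute was not tested.

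By root mean square distance over the 6 pools, after each probe was centred on its mean, the pattern of A_51_P166107 was most like those of Gsto1 (0.15), a glutathione transferase, Strada (0.22), an activator of the kinase Stk11, and Setd1b (0.22), a histone H3 lysine methyltransferase, out of 4488 probes with a median distance of 0.90. The 3′ Drosha probe was closest to Bcl10 (0.055), Chd4 (0.057) and Elob (0.057), with a median distance of 0.30. A_52_P27117 of Ago4 was closest to Arl14ep (0.057), the mitotic cyclin Ccnb1 (0.063) and Mtus1 (0.082), with a median of 0.37. Among the probes closest to Dicer1 were those of Trim27 (0.12) and Foxo1 (0.12), with a median of 0.50. All share the same 6 pools and arrays.

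Other genes of the pathway were followed through a list of 68 genes, of which 67 had a probe and 46 were tested, each by its brightest tested probe. None passed adjustment (0% of 7254 genes). At an unadjusted limma p under 0.05 there were 6, or 4 lower and 2 higher in HP, where the backgrounds over all genes were 18.7%, 11.4% and 7.38%. The mean ratio was below 0 for 20 of 46, against 51.8% of all genes, and the median over the list was 0.04. On all 3 arrays 9 were lower and 8 higher, against 25.0% and 23.2% of all genes.

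Of 12 nuclear partners of the microprocessor, 1 was lower at that p and 0 higher. Hnrnpa2b1, an RNA-binding protein that helps recruit the microprocessor, was at 11.34, 10.91 and 11.12 in HP pools against 11.56, 11.70 and 11.72 in control pools (−0.53 ± 0.15), and another of its probes gave −0.96. The groups did not overlap. The nuclear cap-binding subunit Ncbp1 (0.34) was above 0 on all arrays without reaching that p, at only 0.02 on replicate 1. It was above background in 2 HP pools and 1 control pool. Ncbp1 was thus tested through the HP channel alone, and its ratio sets no fold. For export both genes tested had positive ratios. Ran, the GTPase that drives transport with exportin 5, was at 12.82, 12.62 and 12.60 in HP pools against 12.50, 12.07 and 12.36 in control pools (0.37 ± 0.12), and Xpo5, exportin 5, was at 0.19 ± 0.14.

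Of 5 genes that help Dicer1 or load Argonaute, 0 reached that p. Prkra, the other double-stranded RNA-binding partner of Dicer1, was at −0.20 ± 0.15, above background in no HP pool and 2 control pools, so that ratio sets no fold. The chaperones Hsp90aa1 and Fkbp4 were at −0.32 and 0.29.

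Of 11 genes of the silencing complex and its regulators, 1 was lower and 1 higher. Gemin5, known for binding small nuclear RNAs in the SMN complex, was at 8.83, 8.16 and 8.12 in HP pools against 9.23, 9.28 and 9.04 in control pools (−0.81 ± 0.18). Ipo8, an importin known in human cells for bringing Argonaute to target mRNAs and into the nucleus, was at 6.94, 7.72 and 7.36 in HP pools against 6.56, 6.33 and 6.42 in control pools (0.90 ± 0.23). Neither gene's groups overlapped. Tnrc6b, a paralogue of Tnrc6a, was at 0.49 ± 0.21, with HP pools at 6.88, 7.85 and 7.38 and control pools at 6.92, 7.20 and 6.54. Eif4enif1, a repressor of translation that binds the cap-binding protein, was at 0.25.

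Of 8 genes for tailing and decay of small RNAs, 1 was lower. Tut4, which adds uridines to the let-7 precursor, was above background in no HP pool and all 3 control pools. It was at 6.15, 6.24 and 6.53 in HP pools and 6.84, 7.21 and 6.87 in control pools (−0.67 ± 0.16). Control was 1.59-fold higher as fitted, and as the HP signals were not above background, this is no firm limit. Tent4b, a terminal nucleotidyltransferase that adenylates RNA, was at −0.33. Of 8 genes of the PIWI pathway, 1 was lower. Gtsf1, a cofactor of PIWI proteins, was at 8.45, 7.18 and 7.56 in HP pools and 8.88, 8.95 and 8.32 in control pools (−0.99 ± 0.30), with an overlap at the HP pool of replicate 1 and −0.33 from another probe. Piwil2, a PIWI protein, was at 0.05.

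**Figure D5:**
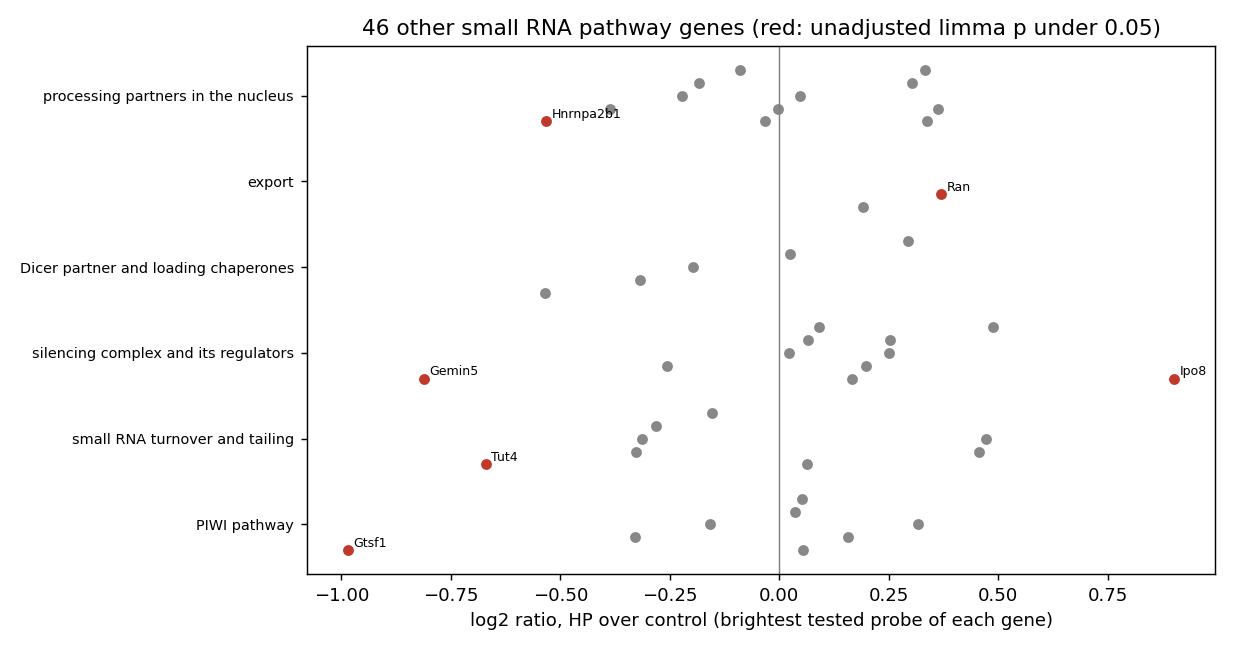
Log2 ratio of HP over control for the 46 tested genes of the pathway list, by role, with the genes at an unadjusted limma p under 0.05 in red. The list runs from −0.99 (Gtsf1) to 0.90 (Ipo8), and each role holds ratios on both sides of 0 except export.

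The calls in this list rest on few arrays. Without replicate 3 there was 1 gene at that p, without replicate 2 there were 3, and without replicate 1 there were 15. The count over all tested probes changed with them, to 867, 798 and 2131, against 1528 with all arrays.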

How the data were processed

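Gene expression in 3 HP pools and 3 control pools was read from 3 arrays of 45018 spots, 43379 of them non-control spots for 41174 probes of 60 bases. The scanner software was Agilent Feature Extraction 9.5.1.1, per the submitters' processing notes. The deposited mean spot signal and median local background are intensity values, with no background subtracted, per the file headers. The deposited log ratio is on a log10 scale, Cy5 over Cy3, and comes from signals the scanner software had processed, per the file headers. It differs from the authors' series table by at most 5e-10. Positions are those of the array design (mm7).

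From the intensities, ratios were computed in R 4.3.3, with limma 3.58.1 and, beside it, statmod 1.5.0: normexp with an offset of 50, loess within arrays with control spots at weight 0, outlier spots left out (208, 172 and 325 on replicates 1, 2 and 3; 0 saturated), and spots averaged per probe. Pool levels were taken after quantile normalization of mean intensity (Aquantile). A probe was tested when well above background in 1 channel on at least 2 of 3 arrays. The fit was an intercept per probe with empirical Bayes (prior degrees of freedom 2.08) and Benjamini-Hochberg adjustment at 0.05 over 8590 probes. Each array pairs an HP pool and a control pool by replicate number, and this pairing is the block. Only the spread from pair to pair enters the p-values, and the number of arrays, 3, limits the precision. The fit alone was run on simulated log ratios with known changes, and the steps before it were not tested in that way.

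Symbols were updated through RefSeq's mouse gene table for 22951 probes by accession, 6659 by symbol and 3109 by synonym, and kept for 8455. All 29 member probes were kept, and some that were above background in no pool are given by gene only. Of the pathway list, up to 6 genes per direction with the smallest p and 1 sign on all arrays were named, with a set of fixed genes where tested, and 3 nearest patterns for each of 4 members. A few items taken by these rules are not reported here. The members and lists were chosen with earlier results of these data known. The other settings (the scanner's processed ratio, the series table, background, scaling, filter, moderation, block, probe and replicates) were run one at a time. The trend on base composition, and leaving out the clone-named Ago2 probe, were added after the data were seen. Sequences are those of the array design.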

Additional observations from a re-analysis of the deposited data

How the results depend on the processing

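Leaving aside settings of filter, moderation and block, which cannot move it, the ratio of Ago2 probe A_51_P166107 stayed negative under each setting that gave it a value. Its limma adjusted p was 0.042 with median centring and ran from 0.042 to 0.51 over the settings (0.069 without replicate 1). With median centring 1140 probes passed adjustment (5 higher, 1135 lower) beside 0 with loess, and 2978 had an unadjusted p under 0.05 (57 higher, 2921 lower) beside 1528 (602 higher, 926 lower). That count was 2585 with no filter, 932 with trended and robust moderation, 974 with replicates 2 and 3 counted as 1 replicate, and 798 to 2131 when a replicate was left out.

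Of the member probes 1 had an unadjusted p under 0.05. The count was 2 with an offset of 0, no background subtraction, scale normalization, the series table, the scanner's processed ratio, replicates 2 and 3 counted as 1 replicate, and separate channels with no replicate block. It was 6 with median centring, 4 of 29 with no filter, 0 without the clone-named Ago2 probe, and 1 to 3 when a replicate was left out. With no replicate block 0 probes passed adjustment, while 1534 probes and 8 genes of the pathway list had an unadjusted p under 0.05. The median ratio of the members, −0.26, was −1.06 with the scanner's ratio and the series table, −0.50 with an offset of 0, −0.60 with median centring and −0.019 with no filter, and −0.29 to −0.22 when a replicate was left out.

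Of the pathway list 6 genes were at that p. There were 3 with the scanner's ratio, the series table and the filter on both channels, 21 with median centring (1 higher, 20 lower), 1 with replicates 2 and 3 counted as 1 replicate, and 1 to 15 when a replicate was left out. The causes were not tested. Signal over background limits the dim probes, and the offset of 50 shrinks their ratios.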
